A study of Homo sapiens with 6 samples.

Results

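The enzymes that assemble and process N-glycans were examined in PC3 cells, a human prostate cancer line grown from a bone metastasis. The members are 44 genes chosen by name for their place in the pathway, and all 44 were found by gene identifier among the 12703 genes of the count table. The control group held 3 libraries from PC3 cells transduced with negative-control lentiviral particles (Lenti-ORF control), and the GCNT1 overexpression group held 3 libraries from PC3 cells carrying a lentiviral GCNT1 open reading frame. GCNT1 adds the GlcNAc branch that turns a core 1 O-glycan into core 2 and is no member of the N-glycan pathway. Both groups were stable, virus-transduced lines, and no drug, dose or time course was applied. The sources used here call the libraries biological replicates without saying whether each line came from its own transduction, so that p-values measure only the spread between these samples. The comparison asks which steps of N-glycan synthesis differed in transcript level between the 2 kinds of line.

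N-glycans are built in steps along the secretory pathway. On the cytosolic and then the lumenal face of the endoplasmic reticulum (ER), ALG enzymes add GlcNAc, mannose and glucose to the lipid dolichol, and oligosaccharyltransferase moves the finished oligosaccharide onto asparagines of new proteins. Glucosidases and mannosidases of the ER then trim the glycan while lectin chaperones and the sensor UGGT1 check the fold of the protein. In the Golgi the last mannoses are removed and GlcNAc branches, core fucose and galactose are added, and the number of branches sets how many galectin-binding lactosamine arms a glycoprotein can carry.

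The 6 libraries held 11392213 to 13825704 counts on genes, at which a floor of 3 counts equals 0.217 to 0.263 CPM (counts scaled to a common library size). GCNT1 itself had 9, 13 and 8 counts in the control libraries and 13, 16 and 35 in the overexpressing ones, a log2 fold change of 0.98 ± 0.37 (SE, n = 3 per group) with a Benjamini-Hochberg (BH) adjusted p of 0.0362 in edgeR. Its log2 fold change ran from 0.49 to 1.21 when 1 library was left out, and it passed in 3 of those 6 fits, being lost without control replicate 1, control replicate 3 or overexpression replicate 3. Whether the counted region includes the whole transgene transcript is not given in the sources used here, so this check of the labels is weak. Of the 4 epithelial markers, KRT8, at 222 ± 7.77 CPM in control and 202 ± 19.8 CPM in overexpressing libraries (mean ± SD, n = 3), and EPCAM, at 5.54 ± 1.12 and 5.91 ± 0.174 CPM, did not pass. KRT18, at 253 ± 7.94 and 222 ± 8.53 CPM, and KRT19, at 369 ± 17.8 and 230 ± 15.9 CPM, fell by 0.18 and 0.68 on the log2 scale (edgeR, BH-adjusted p = 0.00504 and 4.27e-07). Among 4 genes of other cell types, the fibroblast genes COL1A1 and COL3A1 fell by 0.77 and 1.94, the endothelial gene PECAM1 rose by 1.31 from 1.77 to 4.43 CPM, and the leukocyte gene CD68, at 89.8 and 84.4 CPM, did not pass. The part of these marker differences in the values below was not tested.

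Across the pathway, small differences in both directions were seen and 5 genes stood out. MGAT4A, which starts an extra branch on the glycan, and MAN1C1, a Golgi mannosidase, fell strongly, and MAN1B1, MAN2A2 and DPM2 rose by about the threshold or somewhat above it. A gene was counted as passed when its BH-adjusted p in edgeR was under 0.05, and as called when its log2 fold change was also beyond 0.58 in size, a fold of 1.49. Of the 44 members 25 passed (56.8%), 9 higher and 16 lower with GCNT1 overexpression. Of all 12703 genes 57.6% passed, 28.3% higher and 29.3% lower. Scaling by library size alone, which moved the median of all genes by 0.06 on the log2 scale, gave 14 members higher and 11 lower, and 4290 of all genes higher and 3144 lower against 3593 and 3721 in the main test. The 5 called members are 11.4% of the list, against 19.3% of all genes, with 3 higher (8.28% of all genes) and 2 lower (11.1% of all genes). The CPM of the control and overexpressing libraries did not overlap for 28 members (63.6%), against 62.5% of all genes, and 4 of these 28 did not pass. The median log2 fold change of the members was -0.01 against 0.00 for all genes, and the median of its size was 0.19 against 0.26.

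**Figure D1:**
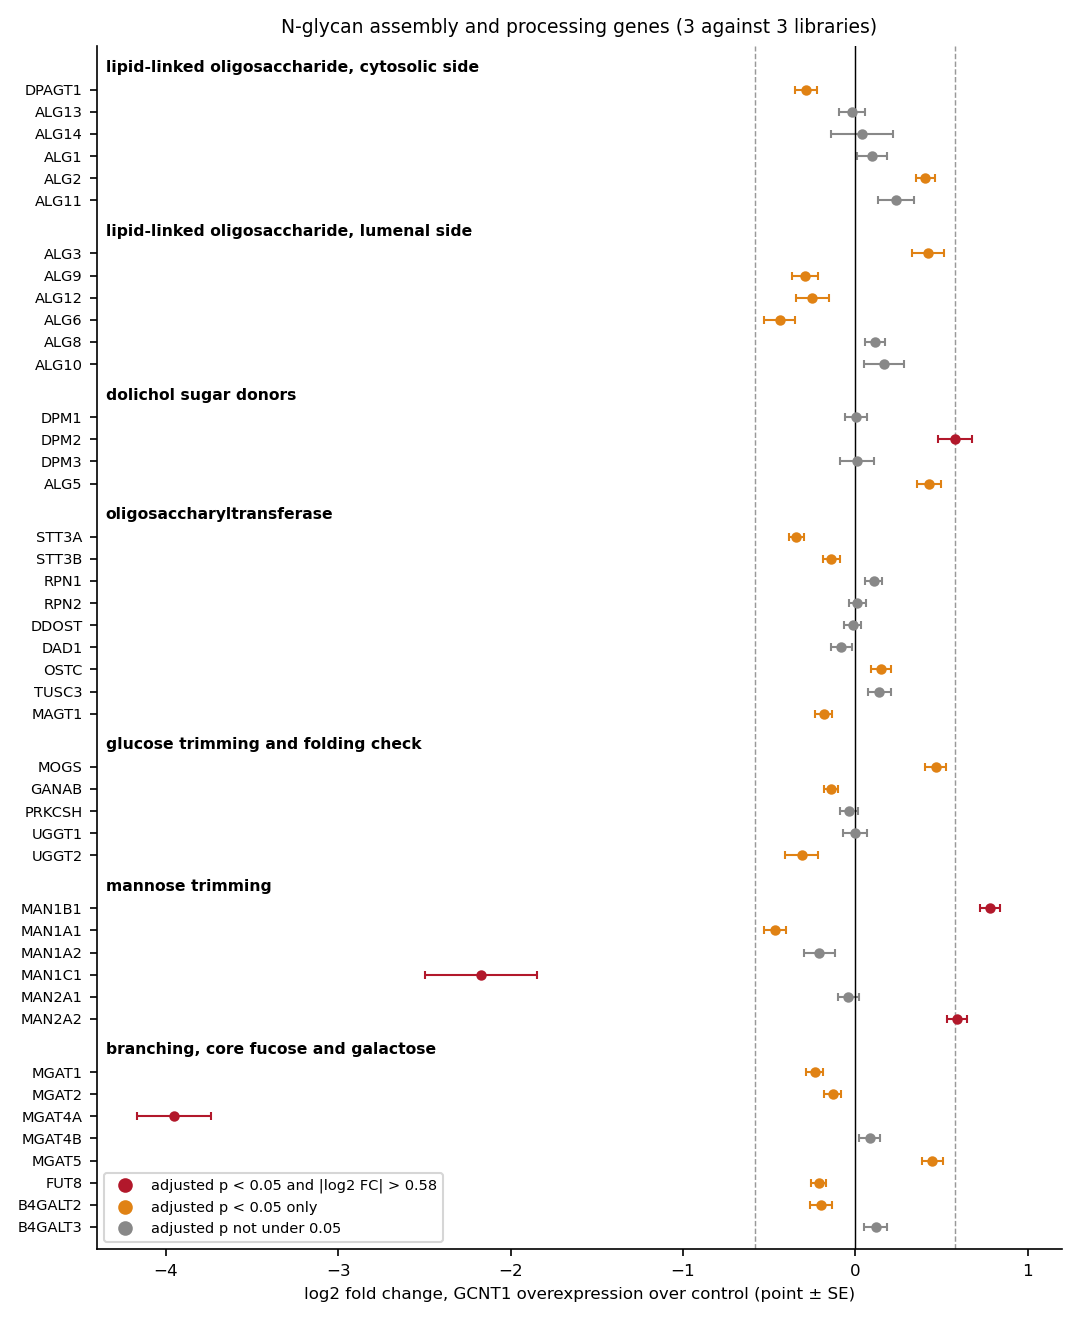
Log2 fold change (GCNT1 overexpression minus control) of each of the 44 members, ordered by step of the pathway, with bars of 1 SE from edgeR (n = 3 per group) and dashed lines at the threshold of 0.58 in each direction; red points were called, orange points passed on adjusted p alone and grey points did not pass. MGAT4A at -3.95 and MAN1C1 at -2.17 lie far to the left, while the other 42 members lie between -0.47 and 0.78.

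Beside many of the main values the local median is given. It is the median log2 fold change of the 50 tested genes nearest to the member on its chromosome, 25 on each side. The members called for a rise sat among neighbours that were also higher, and those called for a fall did not share the size of their change with their neighbours. In bulk RNA, fewer cells that express a gene and less RNA per cell cannot be told apart.

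The first 6 enzymes build the oligosaccharide on the cytosolic face of the ER. ALG2, a mannosyltransferase of the early core, rose and DPAGT1, which starts the chain and is the target of tunicamycin, fell. ALG2 was at 52.4, 51.4 and 51.2 CPM in control replicates 1 to 3 and at 67.8, 67.0 and 70.4 CPM in the overexpressing ones. All 3 overexpressing libraries lay above all 3 controls, with a log2 fold change of 0.41 ± 0.06 (edgeR, BH-adjusted p = 3.71e-05) beside a local median of 0.41. DPAGT1 had a mean of 142 ± 8.70 CPM in control and 117 ± 9.22 CPM in overexpressing libraries, a log2 fold change of -0.29 ± 0.07 (edgeR, BH-adjusted p = 0.00228) with a local median of -0.29. The GlcNAc-adding pair ALG13 and ALG14 and the mannosyltransferases ALG1 and ALG11 had log2 fold changes of -0.02, 0.04, 0.10 and 0.24 and did not pass. The 6 genes summed to 278 to 305 CPM in control and 269 to 300.2 CPM in overexpressing libraries, which overlap. ALG11 overlaps UTP14C on the same strand, so that counts of these neighbours may not be separable.

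The 6 enzymes of the lumenal face add the remaining mannoses and the glucoses, and 4 of them passed (66.7%), 1 higher and 3 lower. Of all genes 57.6% passed, 28.3% higher and 29.3% lower. ALG6, which adds the first glucose, was at 16.8, 16.9 and 16.0 CPM in control libraries and at 13.2, 11.6 and 11.9 CPM in overexpressing ones. Every overexpressing library was below every control, with a log2 fold change of -0.44 ± 0.09 (edgeR, BH-adjusted p = 0.000984) and a local median of -0.20. The mannosyltransferase ALG3, which begins the lumenal steps, went the other way, with 119 ± 17.5 CPM in control and 160 ± 15.4 CPM in overexpressing libraries and a log2 fold change of 0.42 ± 0.09 (edgeR, BH-adjusted p = 0.00163) with a local median of 0.22. ALG9 and ALG12, the next mannosyltransferases in the chain, fell by 0.29 and 0.25 (edgeR, BH-adjusted p = 0.00493 and 0.0384). The fall of ALG12 passed in 2 of the 6 fits that left out a library, with adjusted p up to 0.143, and its groups overlapped. The glucosyltransferases ALG8 and ALG10 had log2 fold changes of 0.12 and 0.17 and did not pass. ALG10 has a near-identical copy, ALG10B, and reads may be split between the copies. The fold changes of the chain thus did not share a sign, and the summed CPM of the 6 genes was 294 to 336 in control and 331 to 365 in overexpressing libraries, which overlap.

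Dolichol-linked sugars are made by 4 members: the subunits DPM1, DPM2 and DPM3 of dolichol-phosphate mannose synthase, and ALG5, which makes dolichol-phosphate glucose. DPM2, a small membrane subunit of the synthase, had 42.8, 51.9 and 57.9 CPM in control and 85.3, 70.9 and 72.4 CPM in overexpressing libraries. The groups did not overlap, although control replicate 1 was the lowest and overexpression replicate 1 the highest of the 6. The log2 fold change was 0.58 ± 0.10 (edgeR, BH-adjusted p = 0.000229), just over the threshold, with a local median of 0.23. Without control replicate 1 it was 0.48 and without overexpression replicate 1 it was 0.50, so that the call was lost while the adjusted p still passed. The catalytic subunit DPM1 was at 0.00 and the anchor DPM3 at 0.01 on the same scale, and neither passed. DPM2 lies at chr9:127935099-127937854 on the minus strand (hg38) and is overlapped on the other strand by a long non-coding gene. ALG5 rose by 0.43 ± 0.07 from 28.0 to 37.7 CPM (edgeR, BH-adjusted p = 0.000148), with a local median of 0.23. Summed over these 4 genes, control libraries were at 147 to 165 CPM and overexpressing libraries at 189 to 196 CPM, with no overlap.

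Oligosaccharyltransferase exists in a form with STT3A, which works beside the translocon as the chain enters the ER, and a form with STT3B, which fills sites that were skipped and uses the oxidoreductases MAGT1 or TUSC3. The catalytic subunit STT3A fell, and the shared subunits among the members did not pass. Outside the member list, the subunit OST4 fell by 0.47 and TMEM258 rose by 0.26 (edgeR, BH-adjusted p = 4.35e-05 and 0.00243). STT3A was at 382, 391 and 393 CPM in control libraries and at 310, 307 and 302 CPM in overexpressing ones. The groups were far apart relative to their spread, with a log2 fold change of -0.34 ± 0.04 (edgeR, BH-adjusted p = 1.43e-05), and the local median was -0.38. STT3A is overlapped by CHEK1 on the same strand and by FEZ1 on the other. STT3B was at 212, 208 and 200 CPM against 179, 189 and 194 CPM, a log2 fold change of -0.14 ± 0.05 (edgeR, BH-adjusted p = 0.0265). Its groups did not overlap, yet it passed in 2 of the 6 fits without a library, with adjusted p up to 0.11.

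MAGT1, a thioredoxin-like subunit of the STT3B form, was at 205, 194 and 192 CPM in control and at 172, 179 and 168 CPM in overexpressing libraries. It fell by 0.18 ± 0.05 on the log2 scale (edgeR, BH-adjusted p = 0.00591) with its groups apart and a local median of 0.19. Its paralogue TUSC3 was at 36.1, 35.8 and 33.9 CPM against 39.6, 40.3 and 36.7 CPM. The TUSC3 groups did not overlap either, but its log2 fold change of 0.14 ± 0.07 did not pass (edgeR, BH-adjusted p = 0.0928). OSTC, a subunit of the STT3A form that contacts the translocon, was 0.15 higher (edgeR, BH-adjusted p = 0.0406) and passed in 1 of the 6 fits without a library. The shared subunits among the members, RPN1, RPN2, DDOST and DAD1, had log2 fold changes of 0.11, 0.01, -0.02 and -0.08, none of which passed. The RPN1 groups did not overlap, and RPN1 passed when counts were scaled by library size alone. Per kilobase of transcript RPN2 was the highest of the 44 members, at 364 CPM per kb in control libraries, and STT3A, STT3B, MAGT1 and TUSC3 were at 86.3, 50.3, 43.7 and 9.54 CPM per kb. The summed CPM of the 9 subunits was 2396 to 2477 in control and 2293 to 2413 in overexpressing libraries, so that the sums overlapped.

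After transfer, MOGS removes the first glucose and the GANAB and PRKCSH subunits of glucosidase II remove the rest, while UGGT1 and UGGT2 put a glucose back on misfolded glycoproteins. MOGS had 72.0, 66.7 and 76.6 CPM in control and 97.8, 97.5 and 102 CPM in overexpressing libraries. No control reached the lowest overexpressing library, and the log2 fold change was 0.47 ± 0.06 (edgeR, BH-adjusted p = 2.29e-05) beside a local median of 0.08. GANAB, the catalytic subunit of glucosidase II, fell by 0.14 ± 0.04 from 1167 to 1059 CPM (edgeR, BH-adjusted p = 0.00703), which did not pass when counts were scaled by library size alone, and its partner PRKCSH was at -0.04 and did not pass. UGGT1 was at 197, 184 and 172 CPM in control and at 164, 196 and 192 CPM in overexpressing libraries. These values overlap fully, with a log2 fold change of 0.00 ± 0.07 (edgeR, BH-adjusted p = 0.974) that took either sign among the alternatives. UGGT2 was at 23.1, 20.9 and 18.7 CPM against 17.0, 15.9 and 17.7 CPM, narrowly apart, with a log2 fold change of -0.31 ± 0.09 (edgeR, BH-adjusted p = 0.0126) and a local median of 0.16. UGGT2 did not pass without control replicate 1 (-0.22) or without overexpression replicate 2 (-0.26). The 5 genes summed to 1981 to 2039 CPM in control and 1892 to 1930 CPM in overexpressing libraries, lower and without overlap. GANAB was the largest part of these sums. For this and the other steps, sums scaled by library size alone and sums of other gene sets were not computed. Gaps between such sums are therefore descriptions.

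Mannose trimming held 3 of the 5 called genes, 50% of its 6 genes against 19.3% of all genes. With 6 genes this count is a description. MAN1B1, an alpha-mannosidase that removes a mannose from glycoproteins bound for degradation or export, rose, MAN1C1 fell to near the floor, and MAN2A2, a Golgi alpha-mannosidase II that opens the way to complex glycans, rose. The 250 bases before the RefSeq start of MAN1B1 and of MAN1C1, class I mannosidases of 1 family that moved in opposite directions, are shown from RefSeq (GRCh38.p14) in 5′ to 3′ order, with each CG dinucleotide in capitals. The MAN1B1 stretch is chr9:137086735-137086984 (plus strand) and the MAN1C1 stretch is chr1:25616541-25616790 (plus strand). The RefSeq start of MAN1B1 lies inside the gene as GENCODE draws it, so that the last 128 bases of its stretch are within the GENCODE gene, while 0 bases of the MAN1C1 stretch are.
MAN1B1: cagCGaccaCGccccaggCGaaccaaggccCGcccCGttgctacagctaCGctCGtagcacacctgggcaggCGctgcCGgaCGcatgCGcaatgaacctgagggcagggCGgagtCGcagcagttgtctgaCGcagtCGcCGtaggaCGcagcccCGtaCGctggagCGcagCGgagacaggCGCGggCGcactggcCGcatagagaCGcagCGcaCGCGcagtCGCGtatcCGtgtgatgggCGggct
MAN1C1: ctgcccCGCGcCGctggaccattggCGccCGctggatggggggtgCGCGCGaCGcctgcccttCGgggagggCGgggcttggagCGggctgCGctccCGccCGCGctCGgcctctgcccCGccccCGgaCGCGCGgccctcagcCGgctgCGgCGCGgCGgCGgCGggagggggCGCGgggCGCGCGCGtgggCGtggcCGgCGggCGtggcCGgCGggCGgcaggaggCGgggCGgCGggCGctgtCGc
They hold 33 and 47 CG dinucleotides and are 69.6% and 86.0% G or C, where the median of all 35116 promoter windows of the same table is 11 CG and 58%. Of those windows 93.2% hold at most the CG count of MAN1B1 and 99.7% at most that of MAN1C1, so both stretches are rich in CG, the gene that rose and the gene that fell alike.

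MAN1B1 (chr9:137086857-137109189, plus strand, hg38) was at 75.3, 78.0 and 79.9 CPM in control and at 143, 128 and 130 CPM in overexpressing libraries. All overexpressing libraries were far above all controls, a 1.72-fold rise with a log2 fold change of 0.78 ± 0.06 (edgeR, BH-adjusted p = 1.44e-07). The local median was 0.60, the highest of any member. MAN1B1 has no overlapping gene in the annotation used.

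MAN1C1 (chr1:25616791-25786206, plus strand, hg38), a Golgi alpha-mannosidase I, had 26, 30 and 17 counts in control and 5, 7 and 5 counts in overexpressing libraries. These are 1.97 ± 0.493 and 0.432 ± 0.0776 CPM (SD, n = 3), a 4.51-fold difference, with a log2 fold change of -2.17 ± 0.32 (edgeR, BH-adjusted p = 7.99e-05) and a local median of -0.15. The groups were well apart, but the gene was among the least abundant of the 44, at 0.554 CPM per kb in control libraries, and the overexpressing values stood only a few counts above the floor. A long non-coding gene overlaps it on the other strand.

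The other Golgi mannosidases of the same class were compared next. MAN1A1 was at 134, 135 and 121 CPM in control and at 87.7, 96.7 and 98.4 CPM in overexpressing libraries. It fell by 0.47 ± 0.06 (edgeR, BH-adjusted p = 3.13e-05) with the groups apart and a local median of -0.29. MAN1A2 was at 82.7, 77.6 and 69.4 CPM against 57.1, 74.4 and 67.0 CPM, overlapping, and its log2 fold change of -0.21 ± 0.09 did not pass (edgeR, BH-adjusted p = 0.0616), though it did without control replicate 3 (-0.27) or overexpression replicate 2 (-0.29). The local median of MAN1A2 was -0.26.

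The class II mannosidases act after the first GlcNAc branch. MAN2A2 (chr15:90902218-90922584, plus strand, hg38) was at 69.9, 68.1 and 75.0 CPM in control and at 107, 103 and 111 CPM in overexpressing libraries. The groups were apart, a 1.51-fold rise with a log2 fold change of 0.59 ± 0.06 (edgeR, BH-adjusted p = 1.93e-06) and a local median of 0.28. The call lay close to the threshold: the log2 fold change was 0.56 both without control replicate 2 and without overexpression replicate 3, where only the adjusted p passed. MAN2A1 was at 77.5, 74.7 and 69.3 CPM against 69.5, 74.4 and 71.4 CPM. Its groups overlapped and its log2 fold change was -0.04 ± 0.06 (edgeR, BH-adjusted p = 0.587), with either sign among the alternatives. The sum of the 6 mannosidases was 416 to 442 CPM in control and 465 to 478 CPM in overexpressing libraries, without overlap.

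In the Golgi, 6 of the 8 branching, core fucose and galactose enzymes passed (75%), 1 higher and 5 lower. Of all genes 57.6% passed, 28.3% higher and 29.3% lower, so with 8 genes this count is a description. MGAT4A was by far the most changed of the 44 members. MGAT4A and MGAT4B both start the branch that turns a biantennary into a triantennary glycan, and MGAT5 starts the beta1,6 branch that is extended with polylactosamine. MGAT4A (chr2:98619106-98731132, minus strand, hg38) had 108 counts in each of the 3 control libraries and 6, 11 and 5 counts in the overexpressing ones. The overexpressing libraries held 0.558 ± 0.226 CPM against 8.8 ± 0.297 CPM (SD, n = 3), a 15.5-fold fall with a log2 fold change of -3.95 ± 0.22 (edgeR, BH-adjusted p = 6.49e-09). The local median was -0.03, no other gene of the annotation used overlaps MGAT4A, and the log2 fold change stayed between -4.32 and -3.69 when any library was left out.

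MGAT4B was at 165, 162 and 179 CPM in control and at 195, 170 and 172 CPM in overexpressing libraries. The groups overlapped and the log2 fold change was 0.08 ± 0.06 (edgeR, BH-adjusted p = 0.265). MGAT4B stood at 71.4 CPM per kb in control libraries and MGAT4A at 1.05 CPM per kb, so MGAT4A was the minor transcript of the pair in both groups. SQSTM1 overlaps MGAT4B on the other strand.

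MGAT5 rose 1.36-fold, at 357 ± 20.4 CPM in control and 487 ± 40.8 CPM in overexpressing libraries, with a log2 fold change of 0.45 ± 0.06 (edgeR, BH-adjusted p = 4.04e-05) that passed but was under the threshold of size, with a local median of 0.11. MGAT1 and MGAT2, which start the first and second branch, fell by 0.24 ± 0.05 and 0.13 ± 0.05 (edgeR, BH-adjusted p = 0.000905 and 0.0309), and MGAT2 passed in 2 of the 6 fits without a library. FUT8, the core fucosyltransferase, fell by 0.21 ± 0.04 from 310 to 268 CPM (edgeR, BH-adjusted p = 0.00102) with a local median of 0.12. MGAT5 was thus the 1 branching enzyme that passed upward. Of the galactosyltransferases among the members, B4GALT2 was at 94.6, 96.5 and 104 CPM in control and at 92.0, 80.0 and 85.2 CPM in overexpressing libraries. The groups were narrowly apart, with a log2 fold change of -0.20 ± 0.06 (edgeR, BH-adjusted p = 0.0168) that passed in 3 of the 6 fits without a library. B4GALT3, overlapped on the other strand by PPOX, was at 51.3, 50.6 and 53.8 CPM against 60.2, 52.1 and 56.9 CPM, overlapping, and its log2 fold change of 0.12 ± 0.07 did not pass (edgeR, BH-adjusted p = 0.142). Scaled by library size alone, B4GALT2 and MGAT2 no longer passed and B4GALT3 did. Outside the member list, the galactosyltransferases B4GALT1 and B4GALT5 rose by 0.38 and 0.26 (edgeR, BH-adjusted p = 0.000143 and 0.000627). B4GALT7 fell by 0.34 (edgeR, BH-adjusted p = 0.00112), and B4GALT4 and B4GALT6 did not pass. The 8 members of this step summed to 1423 to 1474.2 CPM in control and 1474.4 to 1493 CPM in overexpressing libraries, higher but barely apart. Of the 6 that passed, MGAT5 went from 357 to 487 CPM and the other 5 fell.

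**Figure D2:**
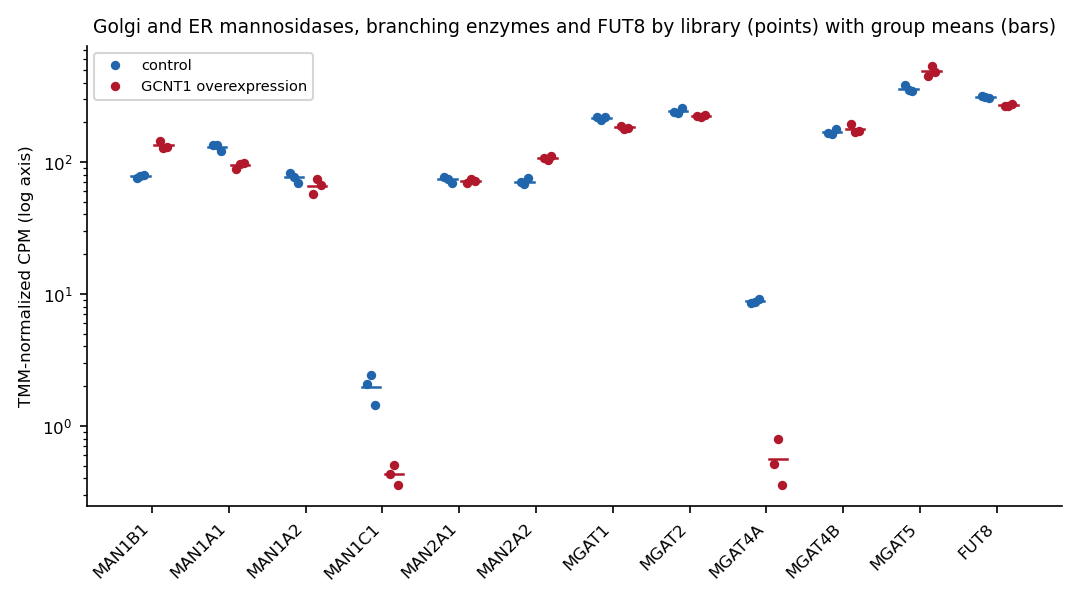
CPM of the 6 mannosidases, the MGAT branching enzymes and FUT8 in each of the 6 libraries, on a log axis, with control points in blue, overexpressing points in red and a horizontal bar at each group mean (n = 3). MGAT4A and MAN1C1 drop by many times while MGAT4B stays between 162 and 195 CPM, and MAN1B1, MAN2A2 and MGAT5 lie higher in every overexpressing library.

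For 7 pairs of paralogues among the members, some of which have further paralogues, the ratio of the 2 counts within each library was also compared, a measure that does not depend on scaling between libraries. In all 7 pairs the ratios of the 2 groups did not overlap, although p was 0.1 for each (exact permutation test, two-sided, n = 3 per group; BH over 7 pairs 0.1), which is the smallest value that 3 against 3 libraries can give. Single genes did not overlap between the groups in 62.5% of cases, and the share for ratios of other gene pairs was not computed, so the count of 7 is a description and not a result about these pairs. MGAT4A to MGAT4B moved furthest. There were 19.1 MGAT4B counts for each MGAT4A count in control libraries and 314 in overexpressing ones, a change in the log2 ratio of -4.04 ± 0.33 (SE) from -4.26 to -8.30. MAN2A1 and MAN2A2 were near parity in control libraries, with a log2 ratio of 0.06, and MAN2A2 was the more counted of the pair in control replicate 3 and in every overexpressing library, where the mean log2 ratio was -0.57, a change of -0.63 ± 0.10.

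The other 5 pairs kept the more counted member, with smaller shifts. STT3A to STT3B fell from a log2 ratio of 0.91 to 0.71, a change of -0.20 ± 0.06. MAGT1 to TUSC3 fell from 2.48 to 2.16, a change of -0.32 ± 0.03, and MAN1A1 to MAN1A2 from 0.77 to 0.52, a change of -0.25 ± 0.08. UGGT1 to UGGT2 went the other way, from 3.14 to 3.44, a change of 0.30 ± 0.11, and B4GALT2 to B4GALT3 fell from 0.92 to 0.60, a change of -0.32 ± 0.02. No pair changed direction when a library was left out or a larger count was added before the ratio.

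**Figure D3:**
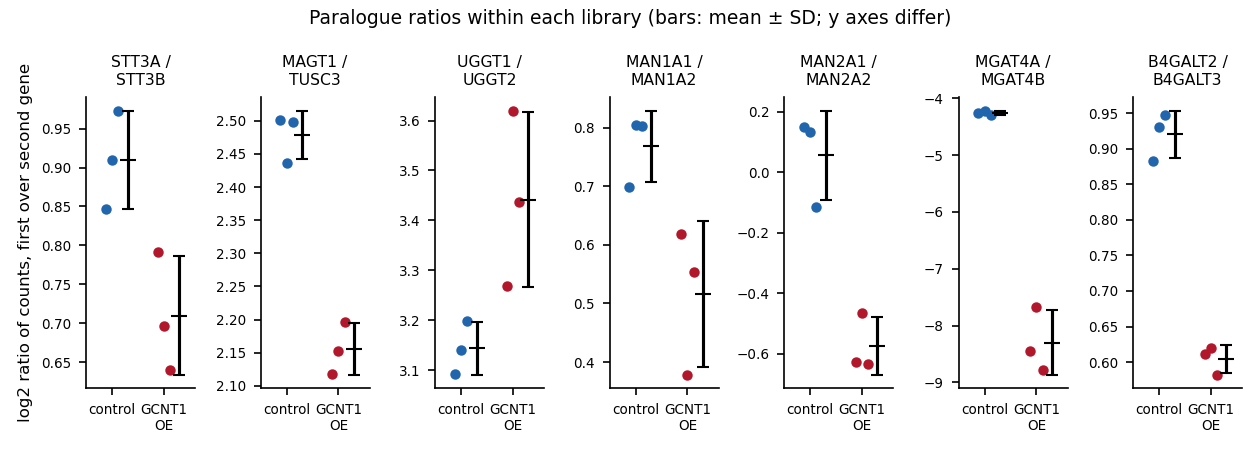
Log2 ratio of counts of the first to the second paralogue of each of the 7 pairs in each library, with control points in blue, overexpressing points in red and black bars for the group mean ± SD (n = 3), each pair on its own axis. The 2 groups are apart in every pair, and MGAT4A/MGAT4B moves from about -4.26 to -8.30.

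The position of the members in the genome was compared with their fold changes. Across the 44 members the log2 fold change and the local median had a Pearson r of 0.34 and a Spearman rho of 0.62, and without MGAT4A and MAN1C1 the values over 42 members were 0.72 and 0.64. For the 12643 genes with a local median, Pearson r was 0.24 and rho 0.45. These are descriptions across genes, which share the libraries and, for neighbours, the same stretch of chromosome, and are not independent. Of the 25 members that passed, 21 had the sign of their local median (84.0%), against 5425 of 7283 genes that passed (74.5%).

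Members on 1 chromosome did not always move alike. The chromosome 9 members ALG2, DPM2 and MAN1B1, which lie far apart, all rose, with local medians of 0.41, 0.23 and 0.60. Of the 5 members on chromosome 11, DPAGT1, ALG9 and STT3A fell with local medians of -0.29, -0.20 and -0.38. GANAB, on the same chromosome, fell with a local median of 0.12, and ALG8 did not pass at 0.12 with a local median of 0.19. On chromosome 5 MGAT4B and MGAT1 shared a local median of -0.29, but MGAT1 fell by 0.24 and MGAT4B, at 0.08, did not pass. The members that passed with a sign other than that of their local median were MAGT1, GANAB, FUT8 and UGGT2, which fell among neighbours whose median was above 0. When the local median was subtracted, only MGAT4A and MAN1C1 of the 25 remained beyond 0.58 in size. The reason for the shared signs was not tested.

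**Figure D4:**
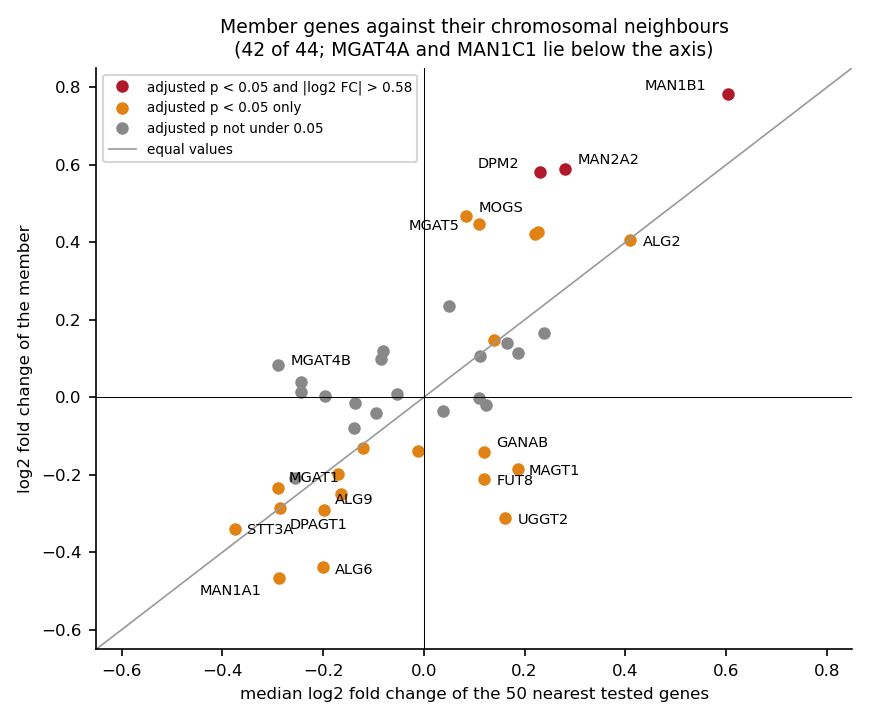
Log2 fold change of 42 of the 44 members against the median log2 fold change of their 50 nearest tested genes, with a grey line where both are equal and colours as in the plot of all members (red called, orange passed only, grey not passed). MAN1B1 lies at the upper right with a local median of 0.60 and STT3A at the lower left with -0.38, and MGAT4A and MAN1C1 are beyond the lower edge of the axis.

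The genes that supply or read this pathway were examined as lists, with 72 of 75 genes tested. Of these 41 passed (56.9%), 20 higher and 21 lower, and 4 were called, shares to be read against 57.6% and 19.3% of all genes. MPDU1, which is needed for use of dolichol-linked mannose and glucose, had 51.6 ± 2.72 CPM in control and 87.4 ± 5.48 CPM in overexpressing libraries, a log2 fold change of 0.76 ± 0.06 (edgeR, BH-adjusted p = 5.26e-07) with a local median of 0.13. DOLPP1, which recycles dolichol pyrophosphate, rose by 0.61 ± 0.09 (edgeR, BH-adjusted p = 7.30e-05) with a local median of 0.35, and was under the threshold of size without control replicate 2 (0.54) or overexpression replicate 1 (0.56). Together with 2 further genes that rose and 2 that fell, 6 of the 7 dolichol supply genes passed (85.7%, against 57.6% of all genes).

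MGAT5B, a paralogue of MGAT5 known for branching O-mannosyl glycans, had 11.96 ± 2.42 CPM in control and 7.72 ± 0.307 CPM in overexpressing libraries, a log2 fold change of -0.63 ± 0.14 (edgeR, BH-adjusted p = 0.00196), which was -0.48 without control replicate 3. PDIA6, a disulfide isomerase of the ER, fell by 0.78 ± 0.04 from 630 to 367 CPM (edgeR, BH-adjusted p = 7.36e-09) with a local median of -0.50. Of the 11 genes that make nucleotide sugars 5 fell past the test (45.5%), none rose and 6 did not pass. Of all genes 57.6% passed, 28.3% higher and 29.3% lower, against which the lists in this paragraph are to be read. Of 13 genes of glycoprotein folding, transport and degradation, mostly lectins and mannosidase-like proteins but also the disulfide isomerase PDIA3 and the LMAN1 partner MCFD2, 2 rose and 6 fell, the strongest being the chaperone CANX at -0.42 ± 0.04 (edgeR, BH-adjusted p = 4.32e-06; local median -0.28). Of 17 ER chaperones and stress-response genes 5 rose and 3 fell, and the median log2 fold change of these 17 was 0.01.

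The other lists were small, and their counts are to be read against the 28.3% of all genes that rose and the 29.3% that fell. Of a list of 4, which held 3 further oligosaccharyltransferase subunits and the glucosyltransferase ALG10B, the subunit TMEM258 and ALG10B rose and the subunit OST4 fell. Of 5 Golgi nucleotide sugar transporters 1 rose, and of 7 further branching and extension enzymes 2 rose and 3 fell. Of 5 genes for the lysosomal mannose phosphate tag 3 rose and 1 fell, and of 3 cytosolic deglycosylation genes 1 rose. None of these 5 lists held a called gene except the branching list, with MGAT5B.

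The ER stress element, CCAAT followed by 9 unspecified bases and CCACG, was searched on both strands in the 300-base promoter windows. It was found in 27 of 35116 windows (0.0769%) and in 1 of the 64 windows of the 37 members with an entry, that of ALG12. CRELD2, from the list of ER chaperones and stress-response genes, overlaps the start of ALG12 on the other strand. To which of these genes the match belongs was not tested. A match is a description of letters and not of binding. Of the 44 members 12 are overlapped on the opposite strand by a protein-coding gene and 3 on the same strand, and where the counting ignored strand, which is not given in the sources used here, reads of such partners cannot be told apart.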

How the data were processed

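Poly(A) RNA libraries of 6 PC3 samples were made by the authors with a stranded kit, and the reads were trimmed with Cutadapt, aligned to hg38 with HISAT2 and counted per gene with featureCounts. The authors deposited raw read counts, without normalization or pooling. The annotation and strand setting of the counting are not given in the sources used here. Groups and replicate numbers came from the labels. All count columns belonged to the samples.

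The main test was that of edgeR 4.0.16 under R 4.3.3 (TMM factors, filterByExpr, which kept all 12703 genes, and the quasi-likelihood test with Benjamini-Hochberg adjustment over all genes). A gene passed at an adjusted p under 0.05 and was called when its log2 fold change was also beyond 0.58, and CPM are scaled by the TMM factors. Paralogue ratios were tested by exact permutation after adding 0.5 counts to each gene. Alternatives used RLE factors, library size alone, no filter, at least 10 counts in every library, DESeq2 1.42.0, limma-voom (limma 3.58.1), a fold change threshold in the test (glmTreat), a replicate block and leaving out each library. The fold change relative to the local median was added after seeing the data. The test was tried on simulated counts first.

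The members and lists were chosen with earlier results of these data known. Values in every library are given, as CPM or counts, for called members, the most changed member of each step and both genes of each pair, and the other members are given by fold change. Of the other lists called genes are named. CANX, TMEM258, OST4, ALG10B, PDIA3, MCFD2, CRELD2, B4GALT1, B4GALT4, B4GALT5, B4GALT6 and B4GALT7 were named after their values were seen. CPM per kb uses the length of the MANE transcript (GENCODE 44), which also gave gene positions and overlaps; 12661 of the genes matched a symbol. RefSeq promoters (GRCh38.p14) were used for 37 members, and ALG10, MAN1A2, MGAT4A, MOGS, RPN1, STT3B and TUSC3 had no entry. Floors cover counting error only.

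Libraries of a group differed by more than sampling noise (chi-square per degree of freedom 1.65 to 5.61), so each counted as 1 sample.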

Additional observations from a re-analysis of the deposited data

How the results depend on the processing

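The 5 called members and both of their directions were the same genes with RLE factors, library size alone, DESeq2, limma-voom and the replicate block. The fit with no filter only repeated the main test, because filterByExpr had removed no gene. At least 10 counts in every library left 3 called members, because MAN1C1 and MGAT4A were removed by the filter. A test against the threshold itself (glmTreat) also called 3, without DPM2 and MAN2A2, and relative to the local median 2 remained, MGAT4A and MAN1C1. Leaving out 1 library gave 4 to 5 called members, 8 to 10 passed higher and 12 to 15 passed lower. The members that no longer passed were MGAT2, STT3B and UGGT2 without control replicate 1, ALG12, OSTC and STT3B without control replicate 2, ALG12, B4GALT2, MGAT2 and OSTC without control replicate 3 and also without overexpression replicate 3, OSTC and STT3B without overexpression replicate 1, and ALG12, B4GALT2, MGAT2, OSTC, STT3B and UGGT2 without overexpression replicate 2. Those that newly passed were MAN1A2, ALG10, B4GALT3 and RPN1 in at least 1 such fit. Scaling by library size alone raised the members passed higher from 9 to 14 (lower 11): ALG12, B4GALT2, GANAB, MGAT2 and STT3B were lost and ALG11, ALG8, B4GALT3, RPN1 and TUSC3 were gained. The sign of 9 members, none of them over 0.0402 in size in the main test, changed in at least 1 alternative: ALG13, ALG14, DDOST, DPM1, DPM3, PRKCSH, RPN2, MAN2A1 and UGGT1. Of the last pair, MAN2A1 was 0.0174 and UGGT1 0.0547 with library size alone, and leaving out a library gave -0.0834 to 0.0034 (above 0 without control replicate 1) and -0.0512 to 0.0704 (0.0556 without control replicate 1 and 0.0704 without overexpression replicate 1). The log2 fold change of GCNT1 was 0.98 with DESeq2, where it did not pass (adjusted p = 0.0821), and 0.49 to 1.21 without 1 library, with adjusted p between 0.011 and 0.269 over the alternatives that tested it. The filter of at least 10 counts in every library removed GCNT1.

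Same-numbered libraries deviated from their group means with a mean correlation of -0.13 (different numbers 0.06), so the numbers were not taken to pair the samples. With a replicate block 8 members passed higher and 13 lower, ALG12, MGAT2, OSTC and STT3B being lost, and 5 were called. Depth limits MGAT4A and MAN1C1, whose overexpressing libraries held 5 to 11 counts.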
